A study of Mus musculus with 28 samples.

Results

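CC chemokines and chemokine receptors were followed through the conversion of Pre-B cells into macrophages by looking up 10 gene symbols among the 55450 genes of the TPM table. All 10 were found, each in 1 row: the chemokines Ccl2, Ccl3, Ccl4, Ccl6, Ccl7, Ccl9 and Ccl12, their receptors Ccr1 and Ccr2, and Cxcr4. Cxcr4 belongs to the CXC receptors, so the name of the group does not cover it, and it is described apart. The rule looks symbols up by name, but the symbols themselves were picked with earlier results of these data known.

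RNA-seq covered 12 libraries. The cells were C10, a line of mouse Pre-B cells derived from HAFTL cells with the CEBPalpha-ER transgene, in which rat C/EBPα is joined to an estrogen receptor domain and enters the nucleus when β-estradiol is present. The 4 time points were 0h (uninduced), 1h, 12h and 48h, with 3 biological replicates each. All groups shared the same line and transgene, and the induced groups received 100 nM β-estradiol together with 10 nM IL-3 and with CSF-1 at a dose that the labels do not give, so the factor and the cytokines cannot be told apart. Promoter Capture Hi-C, which lists the restriction fragments that promoter fragments contact in the nucleus, had 2 replicates per time point that the authors merged into 1 list. C10 is a single line, no sort before RNA extraction is described, and in such bulk samples more expressing cells and more RNA per cell cannot be told apart.

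Chemokines are small secreted proteins that direct the migration of leukocytes, and CC chemokines are named for a pair of adjacent cysteines. They bind receptors that span the membrane and signal through G proteins. Ccl2, Ccl7 and Ccl12 are ligands of Ccr2, the receptor with which monocytes leave the bone marrow. Ccl3 and Ccl4 are inflammatory chemokines, and Ccl3, Ccl6 and Ccl9 are ligands of Ccr1. Cxcr4 is the receptor of Cxcl12, which holds B cell precursors in the bone marrow. Macrophages are a known source of most of these ligands.

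The 7 chemokine genes lie on chromosome 11 in 2 groups. In the mm10 annotation (GENCODE M21), Ccl2 (chr11:82035571-82037453, plus strand), Ccl7 (chr11:82045712-82047525, plus) and Ccl12 (chr11:82101845-82103400, plus) span 67.8 kb. Ccl9 (chr11:83572919-83578636, minus strand), Ccl6 (chr11:83587882-83593087, minus), Ccl3 (chr11:83647844-83649355, minus) and Ccl4 (chr11:83662584-83664683, plus) span 91.8 kb and start 1470 kb further along. Ccr1 (chr9:123962124-123968692, minus) and Ccr2 (chr9:124101950-124113557, plus) are 133 kb apart, and Cxcr4 (chr1:128588199-128592293, minus) stands alone. Annotated genes on the opposite strand overlap Ccl2 (Gm17268) and Ccl6 (E230016K23Rik), and the sources used here do not say whether reads were counted by strand. Gm17268 was at 0 in all 12 libraries and E230016K23Rik lay between 0.06 and 0.85 TPM.

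The 250 bases before the transcript start were available from RefSeq (GRCm38.p6, the mm10 assembly) for 7 of the 10 genes: Ccl3, Ccl6, Ccl9, Ccl12, Ccr1, Ccr2 and Cxcr4. Ccl2, Ccl4 and Ccl7 were not in that table. Each window was searched on both strands for TTNNGNAA (C/EBP), GGGANTTCC (NF-kB), TGANTCA (AP-1), GAGGAA (PU.1), the interferon response element, and TATAAA of core promoters. The C/EBP letters were found in Ccl3, Ccl9, Ccr1, Ccr2 and Cxcr4 (5 of 7), against 36.8% of the 32851 promoter windows of the same length. The AP-1 letters were found in Ccl9 alone among the 7 (6.75% of all windows), the PU.1 letters in Ccl3, Ccl12 and Ccr1 (23.3%), and TATAAA in Ccl9, Ccl12 and Cxcr4 (12.4%). The NF-kB letters (1.43% of all windows) and the interferon response letters (2.98%) were in none of the 7. Windows of 5 genes follow, because Ccl9, Ccl6 and Ccl3 are neighbours, Ccr1 is the receptor of all of them, and Cxcr4 fell. Of the neighbours, Ccl6 had the lowest mean TPM at 12h (4.12, against 26.1 for Ccl3 and 78.9 for Ccl9). Capitals mark every match, and runs that overlap are joined. The windows are Ccl9 at chr11:83578637-83578886, Ccl6 at chr11:83593088-83593337, Ccl3 at chr11:83649379-83649628, Ccr1 at chr9:123968693-123968942 and Cxcr4 at chr1:128592300-128592549, all on the minus strand and written 5′ to 3′.
Ccl9: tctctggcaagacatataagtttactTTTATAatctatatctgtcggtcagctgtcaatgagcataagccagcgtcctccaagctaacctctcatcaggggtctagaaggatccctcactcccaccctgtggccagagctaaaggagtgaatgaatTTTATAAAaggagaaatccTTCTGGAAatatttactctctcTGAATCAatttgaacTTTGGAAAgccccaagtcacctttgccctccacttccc
Ccl6: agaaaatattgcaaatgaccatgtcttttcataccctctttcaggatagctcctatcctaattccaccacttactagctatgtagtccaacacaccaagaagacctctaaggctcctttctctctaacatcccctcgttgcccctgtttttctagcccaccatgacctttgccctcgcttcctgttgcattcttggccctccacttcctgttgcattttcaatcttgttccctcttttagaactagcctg
Ccl3: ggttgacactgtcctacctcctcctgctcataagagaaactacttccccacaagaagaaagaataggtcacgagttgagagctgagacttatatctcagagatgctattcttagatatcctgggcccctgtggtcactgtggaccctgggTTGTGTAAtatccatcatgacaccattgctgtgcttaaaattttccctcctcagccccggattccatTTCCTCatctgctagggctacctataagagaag
Ccr1: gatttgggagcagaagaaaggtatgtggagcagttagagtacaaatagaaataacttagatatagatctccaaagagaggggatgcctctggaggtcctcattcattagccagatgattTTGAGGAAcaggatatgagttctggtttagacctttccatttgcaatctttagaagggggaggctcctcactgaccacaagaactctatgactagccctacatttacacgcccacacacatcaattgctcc
Cxcr4: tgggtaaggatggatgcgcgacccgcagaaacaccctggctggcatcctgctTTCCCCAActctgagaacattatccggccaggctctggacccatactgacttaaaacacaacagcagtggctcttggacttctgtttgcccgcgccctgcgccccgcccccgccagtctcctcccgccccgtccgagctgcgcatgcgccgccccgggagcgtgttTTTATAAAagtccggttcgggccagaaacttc

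Counted back from the transcript start, Ccl9 held C/EBP letters from -75 to -68 and from -38 to -31, with the AP-1 letters between them from -53 to -47. Ccl3 held 1 C/EBP match from -100 to -93 and 1 PU.1 match on the reverse strand from -33 to -28. In Ccr1 the C/EBP match from -131 to -124 and the PU.1 match from -129 to -124 are the same bases. The Ccl6 window held none of the 6 motifs. A match is a description of the letters in these windows and says nothing about whether a factor was bound.

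The deposited values are TPM, the abundance of each transcript per length relative to all others in the library, and keep no record of depth. The most abundant pair of genes made up 70.3% to 82.9% of every library's TPM, so the TPM of all other genes depends on that share. limma was run on log2(TPM + 0.1) for the 16415 genes whose mean over the 12 libraries reached 0.1 TPM, and an adjusted p under 0.05 is called passed. Against 0h the median log2 difference of all tested genes was 0.59 (1h), 0.34 (12h) and -0.18 (48h), and it was -0.29 from 1h to 12h and -0.62 from 12h to 48h. Median-of-ratios scaling, which divides each library by a factor that brings its middle gene to a common level (mean factor 0.930, 1.47, 1.18 and 0.699 in order of time), brought these medians to between -0.012 and 0.072, and values after it are given where a call depends on it. The labelled cell states were checked with marker genes. All 13 Pre-B cell markers fell from 0h to 48h (12 after scaling) and all 8 macrophage markers tested rose, with Mertk at 0 in every library and Adgre1 (F4/80) at a mean of 0.097 TPM at 48h.

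Of the 10 genes, 9 passed the filter on low values, and Ccl12 did not. The third libraries of the 4 time points deviated together from their group means (correlations from 0.0698 to 0.257 in 6 pairs, 5 of them over 0.1), and correlated below 0 with each library of another number at another time point. Values without all 4 of them are given where a call changes. With the mean taken over the 0h libraries alone only 4 would have passed, and over the 0h and 1h libraries 6, so most entered the test through the later time points. Ccl4, Ccl7 and Ccl12 were at 0 TPM in all 0h and all 1h libraries. No fold change is given for them against those time points.

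Ccl9 and Ccl3 rose within the first hour, together with Ccl2, and Ccl9 was the most abundant of the 7 in TPM at 12h and 48h. Ccl6, Ccl2 and Ccl3 each gained most of their TPM after 12h, and Ccl6 was the lowest of these at 12h (means 4.12, 16.8 and 26.1). Ccl4, Ccl7 and Ccl12 were first detected at 12h or 48h and stayed low.

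Ccl9 was at 0.5, 0.43 and 0.07 TPM before induction, 3.56, 5.76 and 2.14 after 1h, 67.73, 72.86 and 96.22 after 12h, and 92.15, 121.37 and 103.87 after 48h. The libraries of 0h, 1h and 12h did not overlap, while those of 12h and 48h did. Its log2 difference from 0h was 3.27 ± 0.45 (SE) at 1h (limma adjusted p = 0.000625), 7.69 ± 0.45 at 12h (adjusted p = 4.02e-07) and 8.12 ± 0.45 at 48h (adjusted p = 8.83e-08). From 12h to 48h the log2 difference was 0.43 ± 0.45 and did not pass (limma adjusted p = 0.495; 1.18 with adjusted p = 0.0612 after scaling).

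Ccl3 was at 2.52, 0.7 and 1.57 TPM before induction, 15.85, 17.42 and 13.43 after 1h, 26.25, 28.35 and 23.64 after 12h, and 64.4, 70.16 and 51.81 after 48h. It was the only one of the 7 chemokines above 0.5 TPM in every 0h library, and no 2 time points overlapped. Its mean rose 9.75-fold by 1h (log2 difference 3.36 ± 0.34 (SE), limma adjusted p = 7.87e-05) and 38.9-fold by 48h (log2 difference 5.35 ± 0.34, adjusted p = 2.33e-07). From 1h to 12h the log2 difference of 0.74 ± 0.34 did not pass as deposited (limma adjusted p = 0.14) and passed after scaling (1.07, adjusted p = 0.0467). From 12h to 48h it was 1.24 ± 0.34 (limma adjusted p = 0.0136), and this call was lost without the third 12h library (adjusted p = 0.054), without the third library of every time point (adjusted p = 0.134) or without the second 48h library (adjusted p = 0.05).

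Ccl6 was at 0.11, 0 and 0.15 TPM before induction, 0.21, 0.49 and 0.39 after 1h, 3.75, 4.79 and 3.83 after 12h, and 43.83, 55.66 and 57.74 after 48h. The time points did not overlap, and the largest part of its TPM was gained after 12h. Its log2 difference from 0h was 4.59 ± 0.34 (SE) at 12h (limma adjusted p = 2.79e-06) and 8.23 ± 0.34 at 48h (adjusted p = 1.12e-08), and from 12h to 48h it was 3.63 ± 0.34 (adjusted p = 1.78e-05). The value at 1h (1.36 ± 0.34, limma adjusted p = 0.0154) did not pass after scaling (0.92, adjusted p = 0.132) or without the second 1h library (adjusted p = 0.0655) or the third library of every time point (adjusted p = 0.0825). Ccl6 reached the filter through its later libraries (0h mean 0.0867 TPM), so its calls against 0h add no support beyond the TPM values.

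Ccl4 was at 0.3, 0.2 and 0.95 TPM at 12h and at 2.73, 2.71 and 5.7 at 48h, after 0 in all 6 earlier libraries. The third library was the highest at both times. Ccl4 reached the filter through its 12h and 48h libraries alone, so its tests against 0h and 1h are not given. From 12h to 48h its mean rose 7.68-fold (limma adjusted p = 0.000672). In the counts below, its 12h calls were lost with a pseudocount of 1 against 0h (limma adjusted p = 0.108) and against 1h (adjusted p = 0.114). Ccl4 lies 13.2 kb from Ccl3, yet its 48h mean of 3.71 ± 1.72 TPM (SD, n = 3) stood against 62.1 ± 9.38 for Ccl3.

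In the other group of genes, Ccl2 was at 0, 0 and 0.07 TPM before induction, 0.93, 0.87 and 0.89 after 1h, 17.82, 15.68 and 16.91 after 12h, and 44.77, 51.53 and 61.73 after 48h. It rose at every step with no overlap between time points, by log2 differences of 3.06 ± 0.23 (SE) from 0h to 1h (limma adjusted p = 1.00e-05), 4.08 ± 0.23 from 1h to 12h (adjusted p = 7.51e-07) and 1.63 ± 0.23 from 12h to 48h (adjusted p = 0.000232). The last of these calls was lost with a pseudocount of 0.01 (adjusted p = 0.0648). With 2 of the 0h libraries at 0, its differences from 0h depend on the 0.1 TPM added to each value. Ccl2 reached the filter through its later libraries (0h mean 0.0233 TPM), so its call against 0h adds no support beyond the TPM values. Ccl7, whose gene lies 8.26 kb from Ccl2, was at 0.12, 0 and 0 TPM at 12h and at 0.5, 1.4 and 0.56 at 48h. Ccl7 reached the filter through its 48h libraries alone, so its tests at 48h are not given. At 12h it did not pass against 0h (limma adjusted p = 0.587). Ccl12, the third gene of this group, was at 0.27, 0.2 and 0 TPM at 48h and at 0 in the other 9 libraries. With 1 of the 48h libraries also at 0, its groups overlapped.

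**Figure D1:**
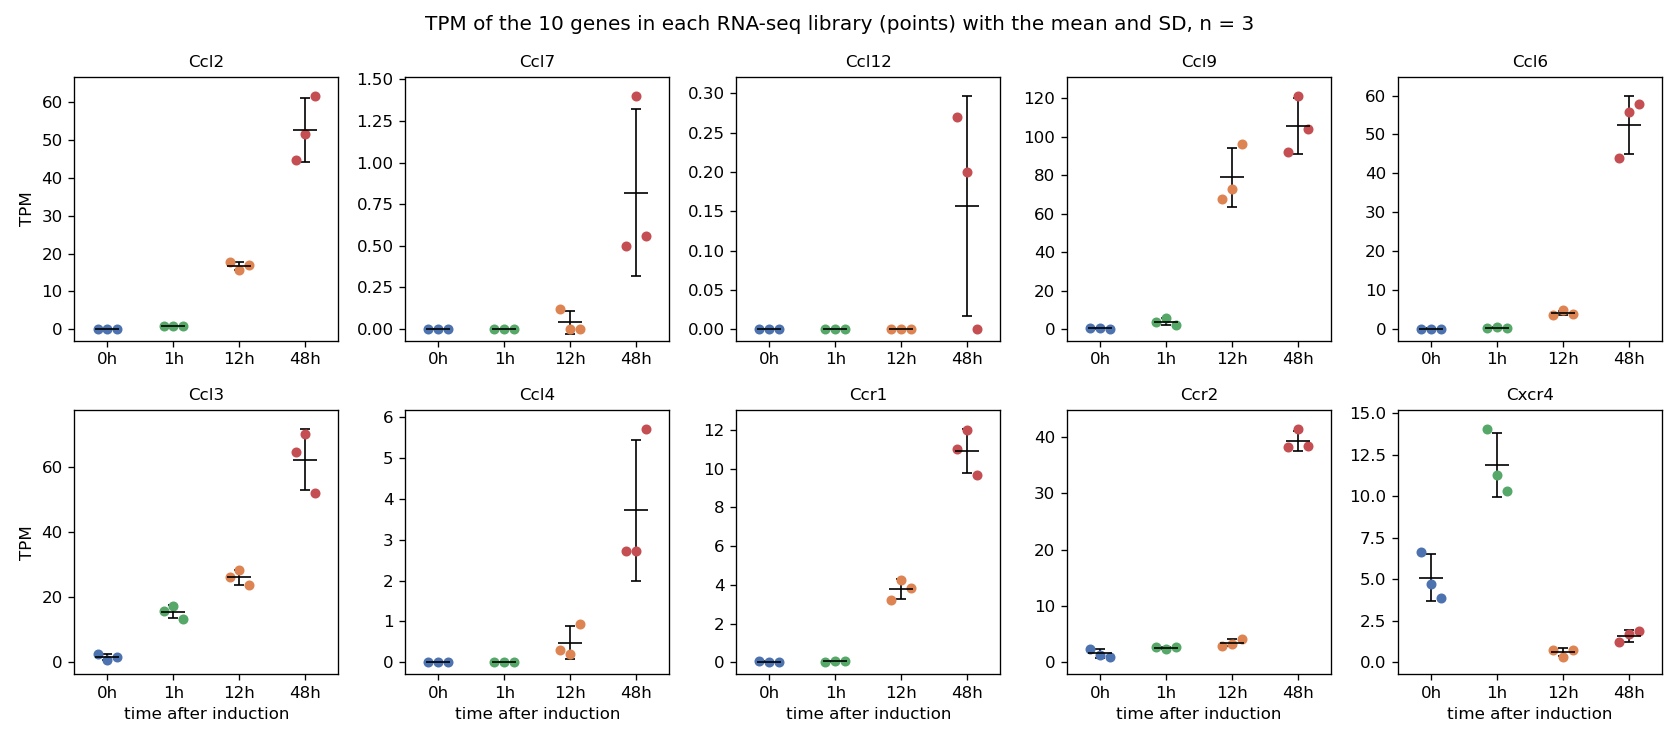
TPM of the 10 genes (vertical axes, each on its own linear scale) at 0h, 1h, 12h and 48h (horizontal axes), with 1 point per library and the mean and SD of 3 libraries in black. Ccl9 and Ccl3 are already raised at 1h, Ccl6 and Ccr2 are still low at 12h beside their 48h level, and Cxcr4 peaks at 1h.

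Both CC receptors rose, and neither passed the test at 1h. Ccr1 was at 0.06, 0 and 0.02 TPM before induction, 0, 0.09 and 0.06 after 1h, 3.22, 4.26 and 3.83 after 12h, and 11.02, 11.96 and 9.69 after 48h. Its 0h and 1h libraries overlapped near 0, and its rise began between 1h and 12h (log2 difference 4.73 ± 0.29 (SE), limma adjusted p = 1.61e-06), later than that of its ligands Ccl3 and Ccl9. Ccr1 reached the filter through its 12h and 48h libraries, so its call against 1h adds no support beyond the TPM values. From 12h to 48h Ccr1 gained a further 2.89-fold (limma adjusted p = 0.00191), a call lost with a pseudocount of 0.01 (adjusted p = 0.191).

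Ccr2 was at 2.45, 1.35 and 1.02 TPM before induction, 2.69, 2.35 and 2.68 after 1h, 2.95, 3.28 and 4.2 after 12h, and 38.19, 41.41 and 38.35 after 48h. The step from 12h to 48h was 11.3-fold (log2 difference 3.48 ± 0.27 (SE), limma adjusted p = 4.17e-06), and the steps before it were small. Against 0h, Ccr2 passed at 12h (log2 difference 1.14 ± 0.27, limma adjusted p = 0.00734; 0.0665 in a fit to the 6 libraries compared and 0.123 without the third library of every time point) and not at 1h (0.73 ± 0.27, adjusted p = 0.0628), where leaving out the first 0h library brought it past the threshold (adjusted p = 0.00536). Its ligand Ccl2 was at 16.8 ± 1.07 TPM (SD, n = 3) at 12h, when Ccr2 was still at 3.48 ± 0.648.

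Cxcr4 was the only one of the 10 genes that was lower at 48h than at 0h, and it did not move in 1 direction. It was at 6.64, 4.74 and 3.9 TPM before induction, 14.03, 11.26 and 10.32 after 1h, 0.77, 0.33 and 0.73 after 12h, and 1.21, 1.72 and 1.89 after 48h. No 2 time points overlapped. It stood 2.33-fold higher at 1h than at 0h (log2 difference 1.23 ± 0.31 (SE), limma adjusted p = 0.0148), but this call was lost after scaling (0.57, adjusted p = 0.185), without the third 0h library (adjusted p = 0.0618), without the first 1h library (adjusted p = 0.0617) and without the third library of every time point (adjusted p = 0.11). From 1h to 12h its mean fell by 4.13 ± 0.31 on the log2 scale (limma adjusted p = 6.27e-06), and between 12h and 48h it rose again 2.63-fold (log2 difference 1.31 ± 0.31, adjusted p = 0.00608; 0.0522 in a fit to the 6 libraries compared and 0.0629 without the third library of every time point). Against 0h it fell by 1.59 ± 0.31 on the log2 scale at 48h (limma adjusted p = 0.00123; it fell by 1.21 after scaling, adjusted p = 0.0022). Cxcl12, the ligand of Cxcr4, did not reach the filter of 0.1 TPM.

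Counted over the 9 genes tested, 5 passed as higher and 0 as lower at 1h against 0h, where 24.1% of all tested genes were higher and 1.41% lower. After scaling 3 were higher (Ccl2, Ccl3 and Ccl9) against 5.42% of all genes (4.92% lower). At 12h against 0h, 7 were higher and 1 lower, beside 22.3% and 7.82% of all genes (after scaling also 7 and 1, beside 16.0% and 14.5%). At 48h against 0h, 8 were higher and 1 lower, beside 15.9% and 27.2% of all genes (after scaling 8 and 1, beside 24.5% and 22.0%). Differences beyond 2 on the log2 scale were reached by 3 genes upward at 1h and by 0 downward (3.59% and 0.378% of all genes), by 6 upward and 1 downward at 12h (5.90% and 1.83%) and by 8 upward and 0 downward at 48h (6.43% and 10.0%).

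From 1h to 12h, 5 genes were higher (Ccl2, Ccl4, Ccl6, Ccl9 and Ccr1) and 1 lower (Cxcr4), beside 6.98% and 15.0% of all genes. After scaling Ccl3 and Ccr2 joined them, giving 7 higher and 1 lower beside 11.3% and 8.77%. From 12h to 48h, 8 of the 9 were higher and 0 lower, at a step where 4.10% of all genes passed as higher and 31.7% as lower (after scaling 8 and 0, beside 10.5% and 11.9%). The exception was Ccl9. Beyond 2 on the log2 scale there were 5 genes upward and 1 downward from 1h to 12h (2.07% and 2.60% of all genes), and 4 upward and 0 downward from 12h to 48h (1.91% and 5.28%). Libraries of the compared times did not overlap for 5 genes upward and 0 downward at 1h against 0h (40.8% and 3.28% of all genes), 7 and 1 at 12h (30.6% and 12.4%), 8 and 1 at 48h (19.2% and 30.8%), 7 and 1 from 1h to 12h (12.1% and 27.2%) and 8 and 0 from 12h to 48h (5.81% and 39.2%). Because the filter let several genes in through their late values, these counts describe the 9 genes and do not stand for the whole family. For that reason, calls of Ccl2, Ccl4, Ccl6, Ccl7 and Ccr1 against time points near 0 TPM add no support beyond the TPM values.

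Relative to the median of all genes, the difference at 48h against 0h was 8.95 for Ccl2, 8.40 for Ccl6, 8.30 for Ccl9, 6.64 for Ccr1, 5.52 for Ccl3, 4.79 for Ccr2 and -1.42 for Cxcr4 on the log2 scale. At 1h it was 2.77 for Ccl3, 2.67 for Ccl9, 2.47 for Ccl2, 0.77 for Ccl6 and 0.64 for Cxcr4. Where the 0h libraries are at or near 0 TPM, the size and order of these values depend on the pseudocount. The difference of Ccr1 at 48h was 6.46 as reported, 3.53 with a pseudocount of 1 and 8.62 with 0.01, and with a pseudocount of 1 Ccl9 (6.33) stood above Ccl2 (5.70). At 1h Ccl2 was at 0.89 with a pseudocount of 1, below Cxcr4 at 1.09.

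**Figure D2:**
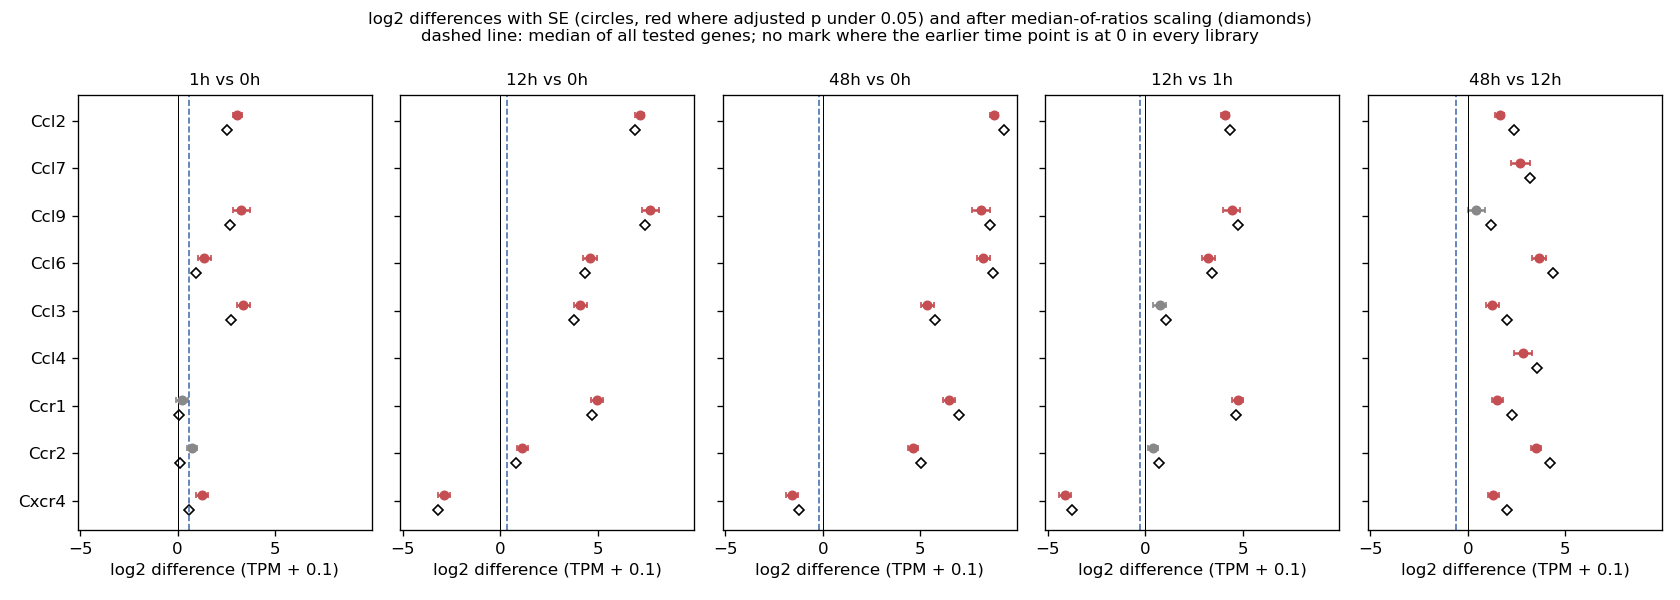
log2 differences of TPM + 0.1 (horizontal axes) for 5 comparisons, as deposited with their SE (circles, red where the adjusted p is under 0.05) and after median-of-ratios scaling (diamonds), with the median of all 16415 tested genes as a dashed line. Ccl4 and Ccl7 have no mark where the earlier time point is at 0 in every library, and Ccl12 was not tested. At 12h and 48h against 0h every gene drawn lies to the right of 0 except Cxcr4.

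The order of the levels changed with time. At 0h the highest of the 10 in TPM was Cxcr4, followed by Ccr2 and Ccl3, whose libraries overlapped. At 1h Ccl3 (15.6 ± 2.01 TPM, SD, n = 3) and Cxcr4 (11.9 ± 1.93) overlapped at the top. At 12h Ccl9 led with 78.9 ± 15.2 TPM, above Ccl3 and Ccl2 without overlap, while Ccl6, Ccr1 and Ccr2 could not be ranked by their libraries. At 48h Ccl9 (106 ± 14.7 TPM) was followed by Ccl3, Ccl2 and Ccl6, which overlapped each other, then by Ccr2 (39.3 ± 1.81), Ccr1 (10.9 ± 1.14) and Ccl4. The summed TPM of the 7 chemokines went from between 1.13 and 3.13 at 0h to between 249 and 303 at 48h.

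The genes whose log2(TPM + 0.1) followed each of these genes most closely over the 12 libraries were looked up among 9330 others with a mean of at least 1 TPM. These correlations are descriptions over libraries that the genes share, in which any gene that rises with time scores high. For Ccl2 they were Ctsc (r = 0.995), Mmp8 and Cd33, for Ccl3 Arid5b (0.990), Nrg1 and Vmp1, and for Ccl9 Cyp4f18 (0.993) and Cd44. For Ccl6 they were Ifi202b (0.990), Gm7609 and Mpeg1, and for Ccl4 S100a10 (0.989), Ifi27l2a and Ifitm3. Ccr1 was followed most closely by Lcp2 (0.994), Cd300ld and Cd300lb, and Ccr2 by Phf11d (0.987), Malat1 and Slfn4. Cxcr4 had the lowest leading value, with Dpp4 (0.941) and Zfp367 among the leading 3. Among the chemokines and CC receptors compared, r ranged from 0.741 (Ccl9 with Ccr2) to 0.972 (Ccl2 with Ccl9), and was below 0 for Cxcr4 with each of the others.

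Most of the other chemokines were not detected. Of 14 other CC chemokines, 11 were at 0 in all 12 libraries, among them Ccl5, Ccl8 and Ccl11, and the summed TPM of all 14 was at most 2.68 in any library. The 1 gene tested, Ccl25, was at 1.06 ± 0.235 TPM at 0h and 1.77 ± 0.745 at 48h (SD, n = 3; limma adjusted p = 0.235), and it passed after median-of-ratios scaling but not after the other 2 scalings tried. Of 16 CXC, C and CX3C chemokines, 9 were at 0 in every library and only Cxcl10, an interferon-induced chemokine, reached the filter. It did so through its 48h libraries alone, at 0.77 ± 0.262 TPM (SD, n = 3) after 0 in the 9 earlier libraries, so its test is not given.

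Of 21 other chemokine receptors, 5 were at 0 in all libraries and 7 were tested. The summed TPM of all 21 went from between 1.29 and 1.51 at 0h to between 37.8 and 43.5 at 48h, near the sum of Ccr1, Ccr2 and Cxcr4 at 48h (between 49.9 and 55.1), so higher receptor RNA at 48h was not limited to the genes described here. At 48h against 0h 3 passed as higher and 0 as lower, beside 15.9% and 27.2% of all genes (4 and 0 after scaling, beside 24.5% and 22.0%). Ccrl2, an atypical receptor that binds without signalling, rose from 0.0667 ± 0.0586 TPM at 0h to 1.12 ± 0.413 TPM at 48h (SD, n = 3). Its 0h mean was below the filter, so its call (limma adjusted p = 0.0003) adds no support beyond the TPM values. Cx3cr1, the fractalkine receptor of monocytes, was at 0 in the 0h libraries and 0.67 ± 0.0529 TPM at 48h and, with the filter passed mostly through those late libraries, its test is not given. Cx3cr1 and Cxcl10 were named after their values were seen. Ccrl2 and Cx3cr1 made up a small part of the summed TPM at 48h, most of which lay in receptors not reported here. In all 48h libraries 7 of the 21 receptors were at 0. At 1h 3 of the 7 receptors passed as higher, beside 24.1% of all genes (1 after scaling, beside 5.42%), and at 12h 4 did, beside 22.3% (4 after scaling, beside 16.0%).

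**Figure D3:**
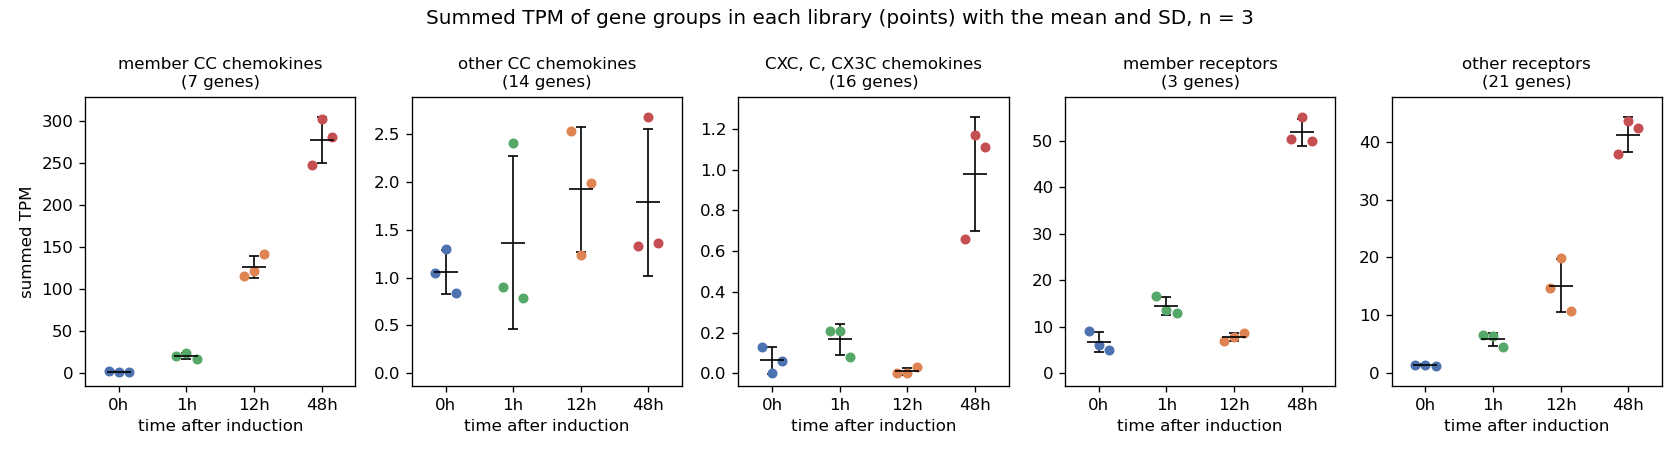
Summed TPM (vertical axes, each on its own linear scale) of the 7 CC chemokines described here, 14 other CC chemokines, 16 CXC, C and CX3C chemokines, the 3 receptors described here and 21 other receptors, with 1 point per library and the mean and SD of 3 libraries. The 7 chemokines reach between 249 and 303 TPM at 48h, while the 14 others stay at or below 2.68 in every library.

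A list of genes that act downstream of chemokine receptors held 25 symbols, of which Grk2 and Adrbk1 name the same gene. All 24 genes were in the table and 22 were tested. At 1h against 0h 9 passed as higher and 0 as lower, beside 24.1% and 1.41% of all genes (4 and 4 after scaling, beside 5.42% and 4.92%). At 12h 13 were higher and 0 lower, beside 22.3% and 7.82% (11 and 2 after scaling, beside 16.0% and 14.5%). At 48h 9 were higher and 6 lower, beside 15.9% and 27.2% (13 and 4 after scaling, beside 24.5% and 22.0%), so the share that fell was near that of all genes. From 12h to 48h 0 were higher and 12 lower, beside 4.10% and 31.7% (3 and 2 after median-of-ratios scaling, beside 10.5% and 11.9%). Rescaling without the 20 most abundant genes and quantile normalization each gave 1 higher and 4 lower. The number that fell at that step thus depended on the scaling. Of the 5 most abundant that passed at 48h, Lyn, a Src family kinase, rose from 7.15 ± 0.163 to 33.6 ± 4.53 TPM (SD, n = 3; limma adjusted p = 3.65e-07), and Gnai2, the G protein subunit to which these receptors couple, from 26.3 ± 2.71 to 44.0 ± 9.25 (adjusted p = 0.00714). Grk2, the kinase that desensitizes the receptors, fell from 36.2 ± 3.43 to 10.2 ± 2.52 TPM (SD, n = 3; limma adjusted p = 3.96e-05), and Rac2, the GTPase of leukocyte movement, from 79.6 ± 5.83 to 41.5 ± 7.86 (adjusted p = 0.000935). The Rac2 call was lost with quantile normalization (adjusted p = 0.0606), and that of Gnb1 (57.8 ± 9.54 to 38.1 ± 3.99 TPM, adjusted p = 0.0208) was lost with each of the 3 scalings tried.

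Markers of other cells moved with the chemokines to different degrees. The summed TPM of 10 macrophage markers lay between 5.81 and 7.55 at 0h, between 202 and 296 at 12h and between 643 and 764 at 48h. The 12 neutrophil markers summed to between 0 and 0.54 at 0h, 17.7 and 23.9 at 12h and 32.8 and 45.1 at 48h. Mmp8 made up 6.93 ± 1.12 TPM (SD, n = 3) of the 12h sum, the smaller part, and 35.9 ± 7.55 of the 48h sum. Mpo, Ctsg, S100a9 and Retnlg were at 0 in every library. Of the 4 neutrophil markers tested, 4 passed as higher at 12h against 0h and 3 at 48h, beside 22.3% and 15.9% of all genes. After median-of-ratios scaling both numbers were 4, beside 16.0% and 24.5%. All 8 mast cell and basophil markers were at 0 throughout. The 7 dendritic cell markers and the 7 T and NK cell markers summed to at most 0.45 and 0.2 TPM in any library. The part of these cell markers in the chemokine results was not tested.

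In Promoter Capture Hi-C, 9 of the 10 genes have their start on a captured HindIII fragment (a bait), and Ccr1 does not. With 1 merged list per time point there is no replicate error, and the numbers of listed interactions are descriptions with no test. The 0h list gives CHiCAGO scores and the later lists whole numbers whose unit is not named, so a common cut-off for 0h and the later times could not be checked. The median over all 18175 baits was 4 at each time point. The 3 genes of the Ccl2 group had nearly no interactions at 0h and gained them at different times. The Ccl2 bait had 0 interactions before induction, then 10 (1h), 11 (12h) and 13 (48h). The Ccl7 bait, which also holds the start of Ccl11, had 1, 8, 9 and 16. For Ccl12 there were 0, 0, 2 and 15. The Ccl7 bait thus had interactions at 1h, when Ccl7 was at 0 TPM in all 3 libraries. At 48h the 3 baits shared 6 contacted fragments, which lie between 82168453 and 82181152 on chromosome 11 (mm10), and the last of them holds the start of Ccl1, whose own RNA was at 0 in all libraries. Of the 44 interactions of these baits at 48h, 36 lay toward higher coordinates, with the interaction between the Ccl7 and Ccl12 baits counted from each of them.

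The 4 baits of the Ccl9 group had interactions from the start. Ccl3 had 19 before induction, then 30 (1h), 27 (12h) and 54 (48h), the largest gain among the 9 baits. Ccl6 had 15, 27, 25 and 27. Ccl9 had 7, 16, 17 and 11, and Ccl4 had 3, 13, 16 and 10, so both were highest at 12h. The baits of Ccl9 and Ccl6, of Ccl9 and Ccl3, and of Ccl3 and Ccl4 were listed in contact with each other at all 4 time points, Ccl6 with Ccl3 at 1h, 12h and 48h, and Ccl7 with Ccl12 at 48h alone. No interaction between the 2 groups was listed.

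**Figure D4:**
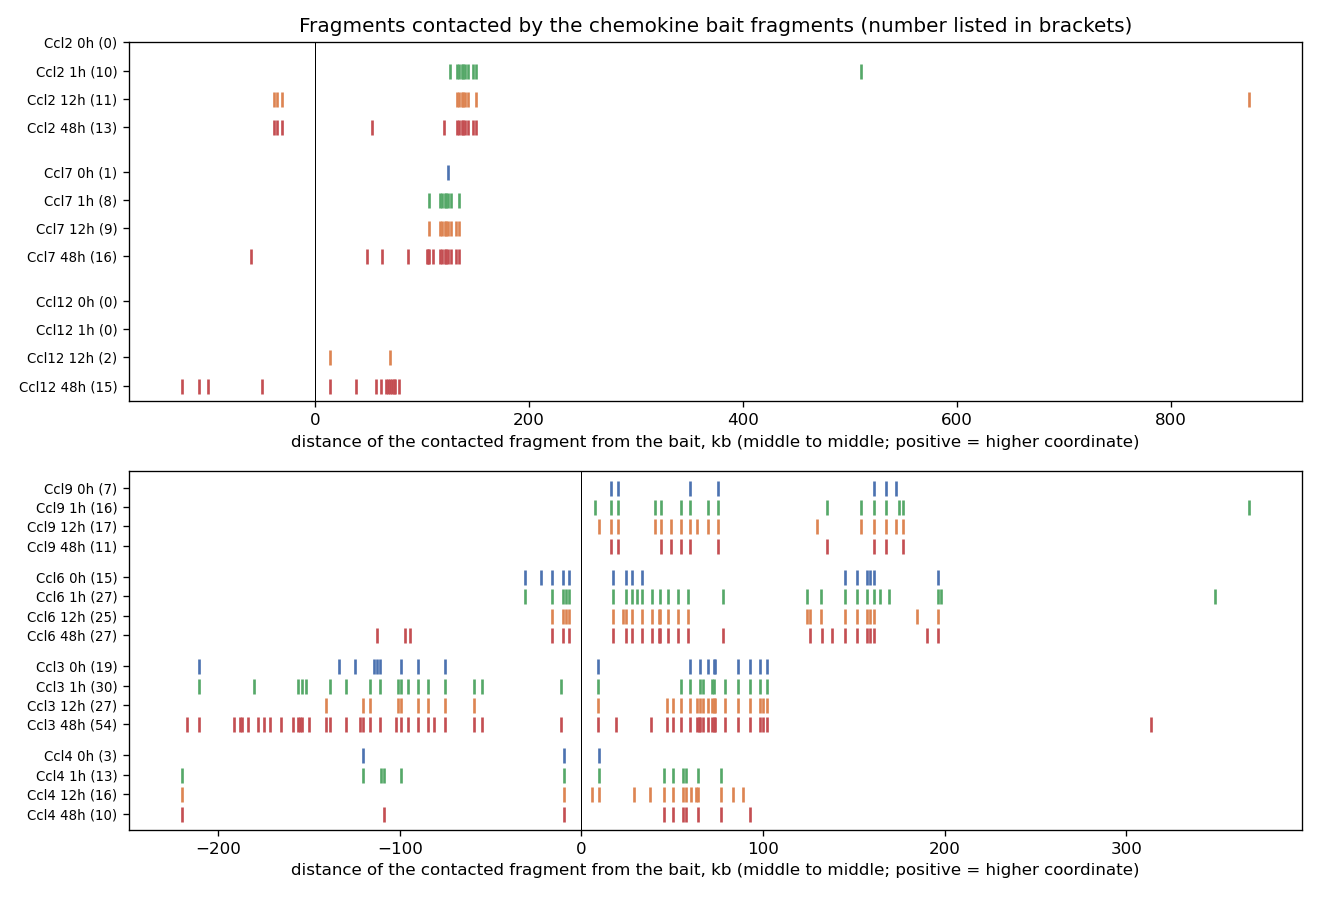
Distance in kb from each chemokine bait to the fragments it contacts (horizontal axes, positive toward higher coordinates) at 0h, 1h, 12h and 48h, with 1 tick per listed interaction and their number in brackets. The Ccl2, Ccl7 and Ccl12 baits have 0, 1 and 0 ticks at 0h and 13, 16 and 15 at 48h, and the Ccl9 group has ticks at every time point.

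Among the receptors, Ccr2 had 24 interactions before induction, then 17 (1h), 19 (12h) and 31 (48h). The fragment that holds the Ccr1 start was contacted by the Ccr2 bait at 0h and 48h, 134 kb away. Cxcr4 had 81, 57, 41 and 84, far more than the median bait, and its number at 48h was close to that at 0h while its TPM was 3.17-fold lower.

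Compared with 0h, 6 of the 9 baits had more interactions at 1h and 2 fewer, beside 41.6% and 39.0% of all baits, and 7 had more and 2 fewer at 12h, beside 42.3% and 40.8%, with 4 that had at least 10 more at each of these times (3.63% and 3.57% of all baits). At 48h all 9 had more (43.3% of all baits had more and 40.1% fewer), and 5 had at least 10 more (6.22% of all baits). Those were Ccl2, Ccl3, Ccl6, Ccl7 and Ccl12. Of the 150 interactions of these baits at 0h, 125 (83.3%, exact 95% interval from 76.4% to 88.9% for counting error only) were listed again at 48h with the same fragments, and over all baits 56.1% were. Most of the 150 belong to Cxcr4, Ccr2 and Ccl3, and neighbouring fragments are not independent. At 48h these baits listed 261 interactions, while the mean over all baits went from 8.89 at 0h to 9.04. In all these numbers an interaction between 2 baits is counted once for each bait. A longer list can hold more of the earlier interactions, so these shares are not directly comparable.

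**Figure D5:**
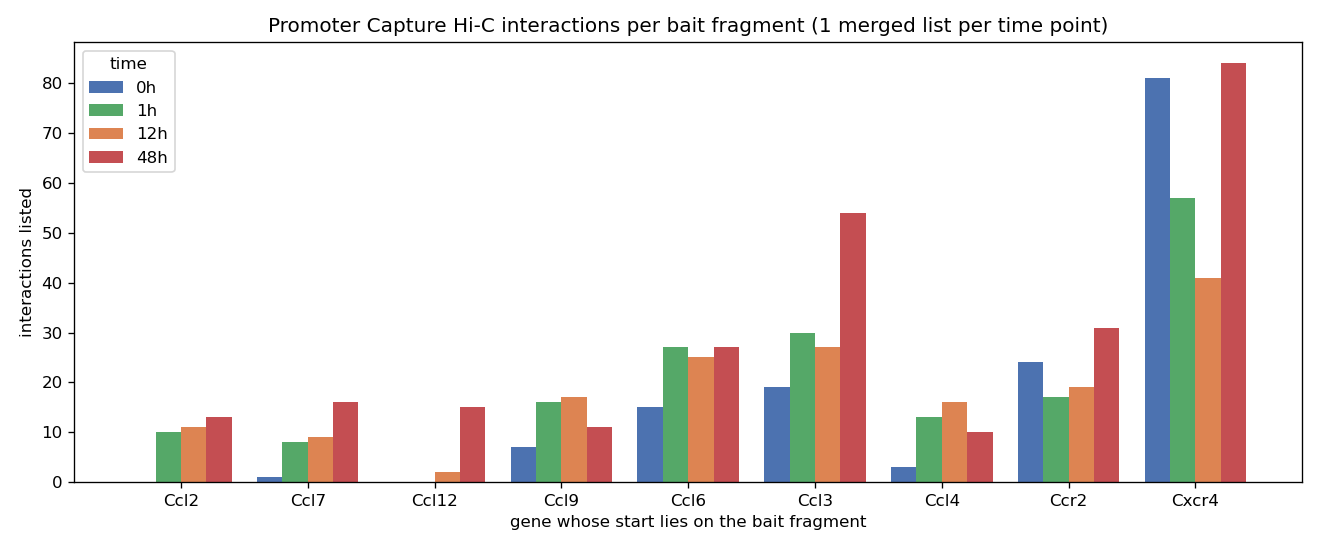
Number of listed Promoter Capture Hi-C interactions (vertical axis, from 0) for each of the 9 genes with a bait, at 0h, 1h, 12h and 48h (bars). The Ccl2, Ccl7 and Ccl12 bars are at 0, 1 and 0 at 0h, Ccl3 reaches 54 at 48h, and Cxcr4 falls to 41 at 12h and is at 84 at 48h.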

How the data were processed

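RNA was measured in 12 libraries and promoter contacts in 4 merged lists. The TPM values were deposited by the authors after trimming with Trim Galore 0.6.2, mapping to mm10 with HISAT2 2.1.0 and quantification with RSEM (tools per the labels). Technical replicates were merged. TPM keep no counts, and the sequencing depth, for which the paper refers to its supplement, was not used here. The contact lists were made by the authors with HiCUP and CHiCAGO on HindIII fragments. In the deposited lists, values at 0h are a CHiCAGO score (lowest 5) and the others are whole numbers of an unnamed unit, and only the presence of an interaction was used.

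The 10 genes were matched by symbol, and the gene lists are those named in the text. Members and lists were chosen with earlier results of these data known. Genes with a mean of at least 0.1 TPM over the 12 libraries (16415) were fitted in 1 model of the 4 time points with limma 3.58.1 (R 4.3.3; trended variance) on log2(TPM + 0.1), with Benjamini-Hochberg adjustment over all genes, and fold changes on that scale understate those of low genes. p-values measure the spread between 3 biological replicates. The test was checked on simulated data in which changes were added only to genes with a mean of at least 1 TPM. No gene was made absent at a time point and no library was shifted as a whole, so neither case was checked. Named list genes were at most the 5 most abundant per list that reached 1 TPM at a time point and passed at 48h against 0h. Alternatives were other pseudocounts, no filter, other scalings, a replicate block, fits to 6 libraries, leaving out each library and, chosen after seeing the data, leaving out the third library of every time point. Promoters came from RefSeq, and protein sequences were not analysed here. Hi-C was not used here. Results of some genes in the lists and among the most similar genes are not reported here.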

Additional observations from a re-analysis of the deposited data

How the results depend on the processing

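Of 727 values of single genes recomputed under alternatives, 696 kept their direction and their side of the threshold, 24 no longer passed, 6 newly passed and 1 reversed: Ccr1 at 1h against 0h under quantile normalization, with a log2 difference of -0.45 (adjusted p = 0.457) that did not pass in either fit. The number of genes higher at 1h against 0h was 3 in place of 5 under median-of-ratios scaling, rescaling without the 20 most abundant genes and quantile normalization. With a pseudocount of 1 the number beyond 2 on the log2 scale was 1 at 1h against 0h and 2 from 12h to 48h, and 7 for the latter under quantile normalization. With a limit of 1 in place of 2 on the log2 scale it was 5 at 1h and 8 from 12h to 48h. Leaving out each library in turn, or the third library of every time point (an alternative chosen after seeing the data), gave between 3 and 6 genes higher at 1h, between 6 and 7 higher and between 6 and 7 beyond 2 at 12h, between 5 and 6 beyond 2 from 1h to 12h, and between 6 and 8 higher from 12h to 48h. Without the third libraries these numbers were 3, 6, 6, 5 and 6. Without the filter Ccl12 was tested (48h against 0h, limma adjusted p = 0.0433; against 12h, 0.0522). Of the 0h interactions, 91.3% were listed at 48h when fragments within 10 kb counted as the same, and 44 of them had a score of at least 10. The replicate numbers did not meet the bar for pairing: same-numbered libraries correlated between -0.0123 and 0.257 (median 0.0726) and others at a median of -0.0523, 7 of 12 libraries correlated best with their own number, and the values over 0.1 were mostly among the third libraries. A fit with the replicate block gave the same counts as without it: 5 higher at 1h, 7 at 12h and 8 at 48h. Depth was not taken into account, so the precision of genes near 0 TPM is not known.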
